A study of Mus musculus with 18 samples.

Results

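The response to peptide antigen (Ag) was compared between naive and tolerized CD4+ T cells, gene by gene, to find which genes responded more and which responded less after tolerization. The comparison used 12 of the 18 RNA-seq libraries of the study, with 3 replicates in each of 4 groups, and covered the 16615 genes that passed a filter on low counts of the 37991 listed. All cells came from the spleens of Tg4-H2u mice, male and female and aged 6 to 12 weeks, whose T cells carry a transgenic αβ TCR for the N-terminal peptide of myelin basic protein. Tolerized mice had received increasing subcutaneous doses of the 4Y variant of this peptide, and control mice had received PBS on the same schedule. A last injection of PBS (N0 from control mice, T0 from tolerized mice) or of 80 µg 4Y peptide (NAg and TAg) was given 2 h before harvest. CD4+ T cells were magnetically enriched without a sort for naive or Ag-experienced cells, so each library is a bulk of all CD4+ T cells of the spleen, and fewer responding cells cannot be told apart from less RNA per cell. Depth was similar, with 10758571 to 13559974 counts per library.

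A T cell recognizes peptide Ag through its TCR, which signals, with costimulation by CD28, through calcium to NFAT, through RAS and MAP kinases to AP-1 and EGR factors, and through protein kinase C to NF-kB. These factors switch on genes for cytokines, TNF family ligands, growth and survival within hours, while genes that keep a resting T cell in quiescence and in circulation are shut down. T cells given repeated Ag without inflammation become tolerant, a state in which they are known to signal less, to make little IL-2 and to express inhibitory receptors and IL-10.

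For each gene the log2 change with Ag in naive cells (NAg against N0) was subtracted from the log2 change in tolerized cells (TAg against T0). A positive difference is called here a higher response of tolerized cells, which can be a larger rise or a smaller fall, and a negative difference is called a lower response. A gene counted as called when the quasi-likelihood test of edgeR gave an adjusted p (Benjamini-Hochberg) below 0.05, the difference reached 1 on the log2 scale and the highest group averaged over 50 normalized counts. A higher response was called for 488 genes, or 2.94% of the genes tested, and a lower response for 354 genes, or 2.13%, together 5.07%. At the adjusted p alone, 2240 genes (13.5%) were higher and 1053 (6.34%) lower, together 19.8%. Beside these, 32.6% of all genes tested rose and 34.0% fell with Ag in naive cells, and 30.3% rose and 30.2% fell in tolerized cells. When libraries were scaled by their totals only, the called genes divided into 635 higher and 292 lower. The responses of both states were similar across the 11121 genes with a highest average above 50 (Pearson correlation of 0.921, a description across genes that share the 12 libraries). Scaling factors (TMM) were 1.09 to 1.10 in N0, 1.10 to 1.23 in T0, 0.818 to 0.844 in NAg and 0.931 to 0.941 in TAg, and all changes are relative to the bulk of the genes in a library, not to the RNA of a cell.

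Most genes with a higher response were genes that fell with Ag, and fell less in tolerized cells. Of the 488 genes, 406 fell in both states and 37 fell in naive cells without passing the test in tolerized cells. The 443 genes together had a median log2 response of -2.71 in naive and -1.43 in tolerized cells. A rise in tolerized cells was found for 45 of the 488, of which 23 also rose in naive cells, 8 did not pass the test there and 14 fell there. These 45 had a median response of 0.37 in naive and 1.88 in tolerized cells.

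Most genes with a lower response were genes that rose with Ag, and rose less in tolerized cells. Of the 354 genes, 198 rose in both states, with a median of 3.26 in naive and 1.60 in tolerized cells. Another 74 rose in naive cells and did not pass the test in tolerized cells, 31 rose in naive and fell in tolerized cells, and 51 fell in tolerized cells after a smaller fall or no passing change in naive cells. Among all genes that rose at least 2-fold in naive cells, 2478 in number, the median response was 1.77 in naive and 1.48 in tolerized cells. Among the 2826 genes that fell at least 2-fold in naive cells it was -1.80 and -1.24. These sets were chosen on the naive response, which tends to make that response the larger, but the order was the same for sets chosen on tolerized cells. The 2136 genes that rose at least 2-fold there had medians of 1.85 in naive and 1.65 in tolerized cells, and the 1994 that fell had -2.11 and -1.59.

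**Figure D1:**
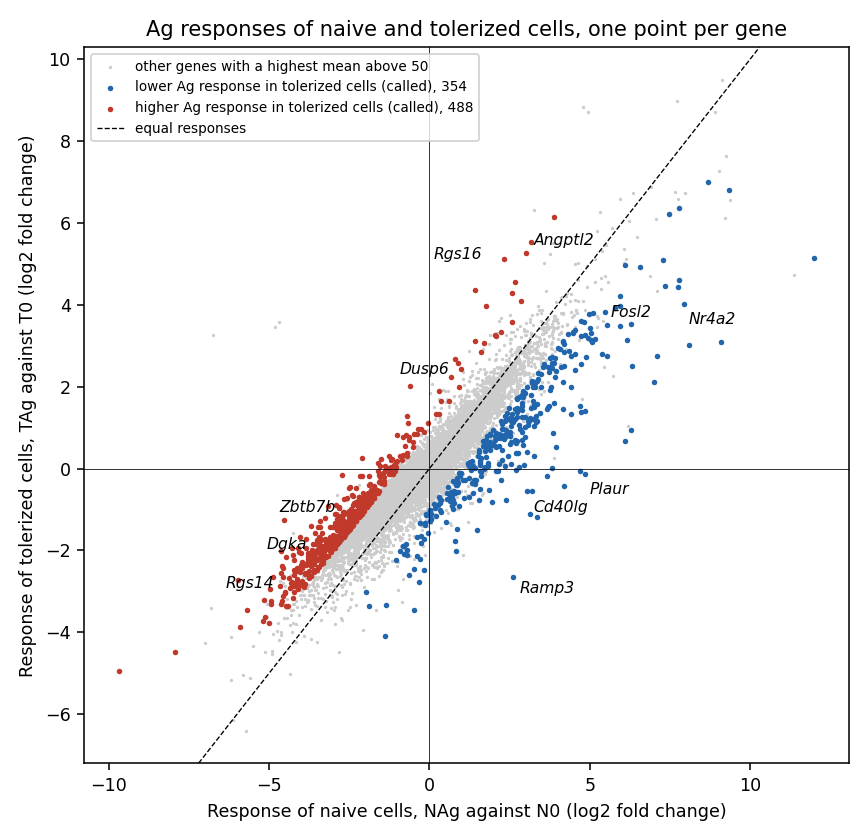
Log2 response to Ag in naive cells (NAg against N0, horizontal) and tolerized cells (TAg against T0, vertical), with 1 point per gene whose highest group averaged above 50 normalized counts. Of the called genes, 488 (red) lie above and 354 (blue) below the dashed line of equal responses, and most red points lie where both responses are below 0.

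**Figure D2:**
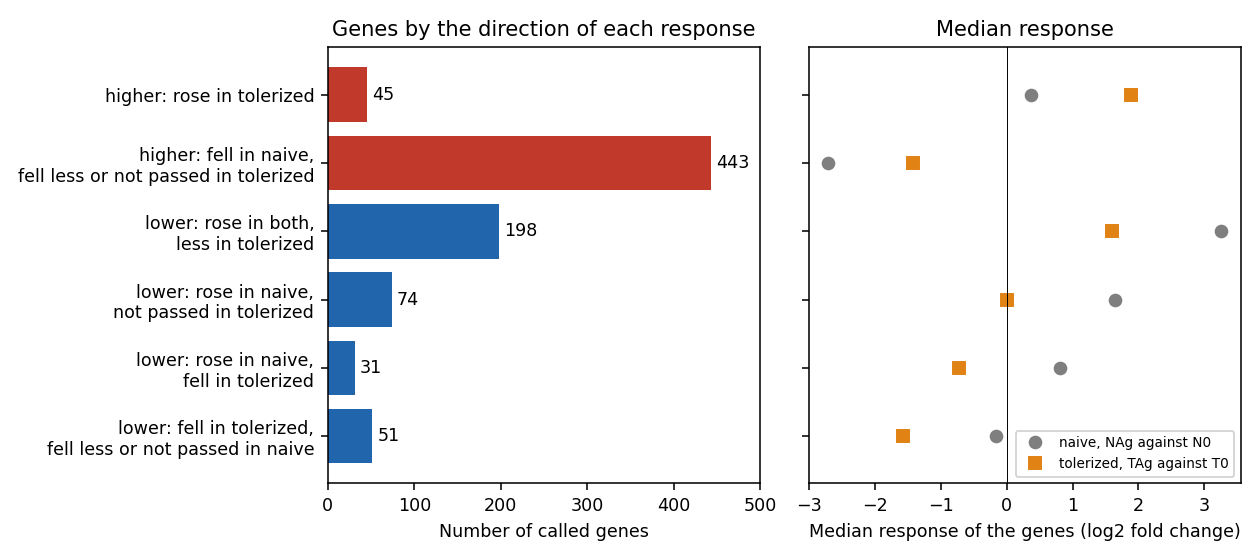
Number of called genes by the direction of each response (left) and their median log2 response in naive (circles) and tolerized cells (squares, right). The 443 genes with a smaller fall outnumber the 45 that rose more in tolerized cells.

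A difference in response can come from the levels after Ag, from the levels at rest, or from both. Among the 488 genes with a higher response, TAg was higher than NAg for 444, and T0 was lower than N0 for 124. Among the 354 genes with a lower response, TAg was lower than NAg for 276, and T0 was higher than N0 for 131. Of all genes tested, 20.9% were higher and 18% lower in TAg than in NAg, and 7.47% were higher and 9.81% lower in T0 than in N0. The replicates of TAg and NAg did not overlap for 455 of the 488 and 303 of the 354 genes, beside 49.3% of all genes tested. For 60 genes with a lower response the gap lay at rest, with T0 above N0 and no passing difference after Ag, and for 12 TAg was above NAg in spite of the lower response. On the linear scale of normalized counts, the difference of the changes had the opposite sign for 6 of the 488 and 11 of the 354 genes, and by over 2 standard errors for 0 and 4 of these.

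**Figure D3:**
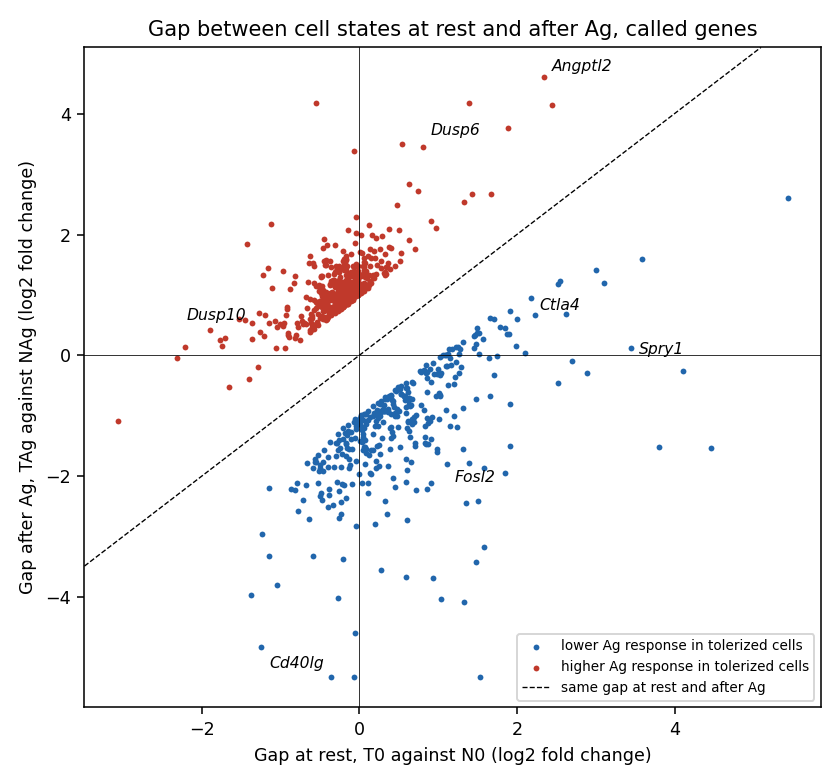
Log2 gap between tolerized and naive cells at rest (T0 against N0, horizontal) and after Ag (TAg against NAg, vertical) for the called genes. Red points have a higher and blue points a lower response of tolerized cells. Ctla4 and Spry1 lie at a high gap at rest, and Cd40lg and Fosl2 below 0 after Ag.

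Among the 45 genes that rose in tolerized cells and had a higher response, several encode inhibitors of the signals that Ag starts. Dusp6 (chr10:98725865-98730122 in NCBIM37) encodes a phosphatase that inactivates the MAP kinase ERK. Its normalized counts were 311, 174 and 182 in N0, 149.6, 112 and 172 in NAg, 423, 370.2 and 374 in T0 and 1466, 1700.1 and 1560.4 in TAg. No groups overlapped, with TAg highest and NAg lowest. The log2 response was -0.62 in naive and 2.02 in tolerized cells, a difference of 2.64 ± 0.29 (SE, adjusted p = 0.000104), so Dusp6 fell in naive and rose in tolerized cells.

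Rgs16 (chr1:155587479-155592598) encodes an RGS protein, which ends signaling of G protein coupled receptors such as chemokine receptors. Counts of 44.9, 7.96 and 24.7 in N0, 167, 139 and 91.7 in NAg, 49.2, 77.0 and 80.4 in T0 and 2483, 2029 and 2619 in TAg gave responses of 2.34 and 5.11 and a difference of 2.77 ± 0.60 (adjusted p = 0.0116). Npas4 (chr19:4984355-4989971), a transcription factor known as an early response gene of neurons, was low outside TAg, with 11.5, 5.97 and 7.61 in N0, 32.5, 21.4 and 13.7 in NAg, 7.64, 16.2 and 12.9 in T0 and 242, 378 and 142 in TAg. The difference was 2.95 ± 0.70 (adjusted p = 0.00982). Angptl2 (chr2:33071589-33103237) encodes a secreted angiopoietin-like protein, and its counts were 63.1, 23.9 and 37.1 in N0, 411, 304 and 286 in NAg, 146, 215 and 276 in T0 and 6359, 8745 and 9114 in TAg. It rose in both states, from a T0 level that was itself above N0, and the difference was 2.25 ± 0.51 (adjusted p = 0.0143). For all 3 genes TAg lay far above the other groups without overlap. Their calls rested on N0 replicate 1, without which the differences were 2.12 for Rgs16 (adjusted p = 0.0536), 2.66 for Npas4 (adjusted p = 0.0611) and 1.82 for Angptl2 (adjusted p = 0.0673).

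**Figure D4:**
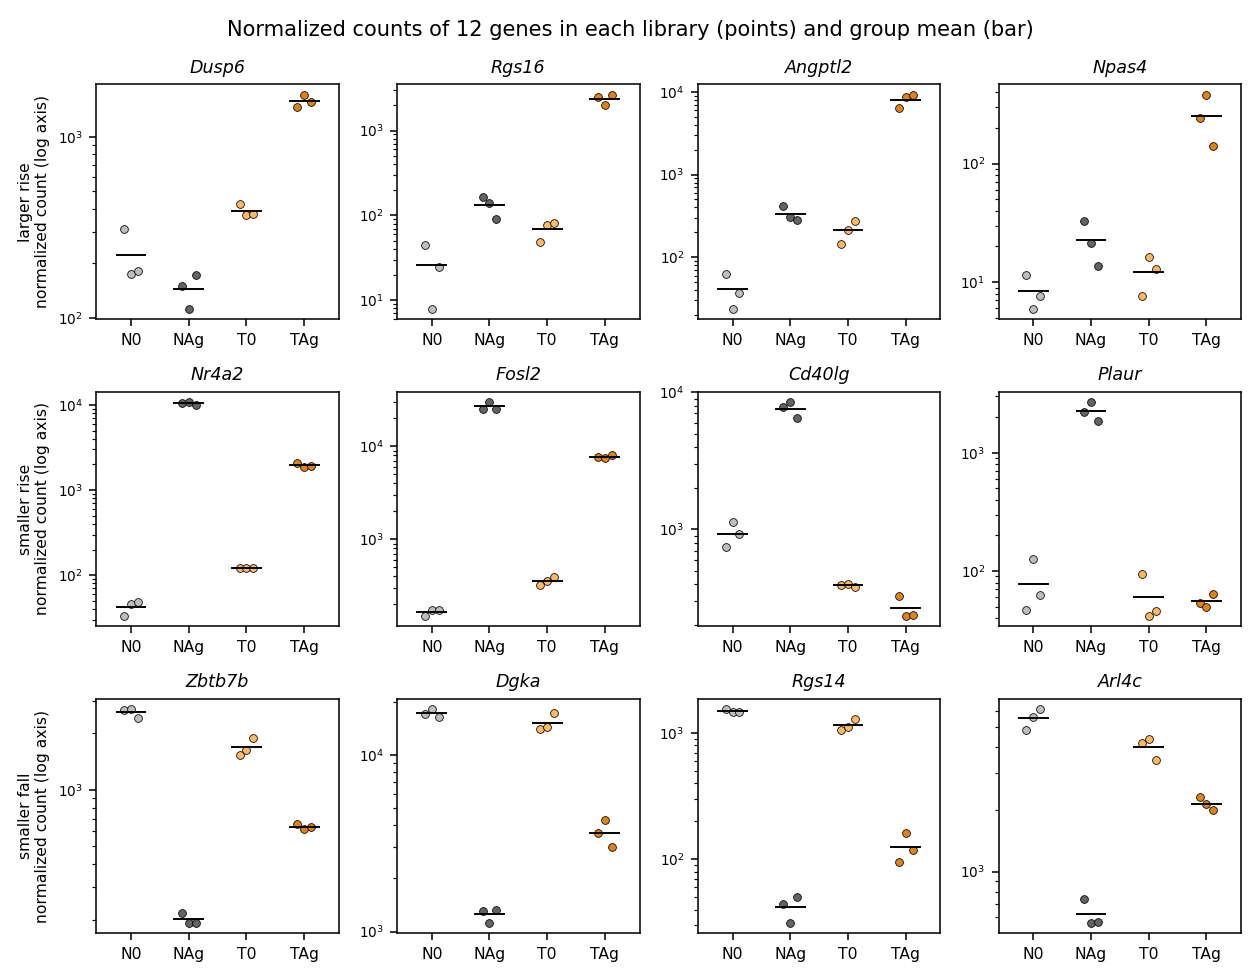
Normalized counts (log axes) of 12 genes in the 3 libraries of each group (points) with the group mean (bar). In the upper row TAg is highest for all 4 genes, in the middle row NAg is highest, and in the lower row the fall from N0 to NAg is larger than that from T0 to TAg.

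Transcription factors were among the genes that rose more. Egr1, an early growth response factor downstream of ERK, had counts of 568, 513 and 716 in N0, 2660.0, 2242 and 2640.3 in NAg, 448, 499 and 408 in T0 and 3582, 4319 and 4955 in TAg. Its corepressor Nab2, which binds EGR proteins and limits their activity, had 499, 437 and 452 in N0, 1238, 1400.5 and 1615 in NAg, 261, 321 and 332 in T0 and 2154, 2310.0 and 2071 in TAg. Both rose in both states and reached higher levels in TAg than in NAg, without overlap, and the differences were 1.18 ± 0.20 for Egr1 (adjusted p = 0.00125) and 1.22 ± 0.15 for Nab2 (adjusted p = 2.14e-05). Egr2 and Egr3 did not pass the test, with differences of 0.58 ± 0.38 (adjusted p = 0.351) and 0.44 ± 0.31 (adjusted p = 0.376).

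Bach2, a repressor that restrains effector differentiation, had counts of 3708, 4512 and 4133 in N0, 4891, 5962 and 4364 in NAg, 2189, 2067 and 2259 in T0 and 8242, 8744 and 7073 in TAg. T0 lay below N0 and TAg above NAg, and the difference was 1.58 ± 0.16 (adjusted p = 5.91e-06). Nfil3, a factor known to act in cytokine genes of T cells, had 32.8 ± 8.11 in N0, 199 ± 46.3 in NAg, 105 ± 12.5 in T0 and 1260.4 ± 255 in TAg (mean ± SD, n = 3 here and below), with a difference just at the limit of the call (adjusted p = 0.0423). The Nfil3 call was lost in 9 of 12 fits that left out a library and in 6 of 9 other alternative fits.

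Other genes of this kind act in RNA decay, signaling and protein folding. Zc3h12d, which belongs to the Regnase family of RNA-degrading proteins, had 811 ± 76.9 in N0, 1046 ± 189.5 in NAg, 1261 ± 294 in T0 and 3931 ± 264 in TAg, with a difference of 1.27 ± 0.23 (adjusted p = 0.00319). Ptpn6 encodes SHP-1, a phosphatase that dampens TCR signaling. It had 2023 ± 253 in N0, 1134 ± 257 in NAg, 1771 ± 20.0 in T0 and 2243 ± 90.4 in TAg, fell in naive cells and rose in tolerized cells, and the difference was 1.17 ± 0.18 (adjusted p = 0.000495). The heat shock cochaperone Dnaja1 had 3430.0, 3103 and 2469 in N0, 1763, 1955 and 2079.6 in NAg, 1449, 1667 and 2268 in T0 and 3176, 3838 and 2152 in TAg, with T0 and N0 each overlapping TAg and a difference of 1.40 ± 0.33 (adjusted p = 0.0168).

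A fall in naive and a rise in tolerized cells, both at an adjusted p under 0.05, was found for 14 of the 488 genes. The 4 with the largest difference were Dusp6, Gdpd5, Igfbp4 and Tfb1m. Gdpd5, a glycerophosphodiester phosphodiesterase, had counts of 121, 91.5 and 79.0 in N0, 88.2, 49.5 and 44.3 in NAg, 150.2, 162 and 178 in T0 and 395, 405 and 391 in TAg and a difference of 1.97 ± 0.29 (adjusted p = 0.000182). Igfbp4, which encodes a binding protein for insulin-like growth factors and is abundant in resting T cells, had 3265, 2744 and 3008 in N0, 1296, 1513 and 1621 in NAg, 3862, 4055 and 2123 in T0 and 6141, 5258 and 6227 in TAg and a difference of 1.84 ± 0.31 (adjusted p = 0.00262). Tfb1m, a methyltransferase of the mitochondrial ribosome, had 95.5, 82.6 and 99.9 in N0, 60.3, 55.1 and 43.2 in NAg, 56.9, 61.6 and 76.7 in T0 and 112, 116 and 104 in TAg and a difference of 1.58 ± 0.25 (adjusted p = 0.000317). In each of these genes all TAg values lay above all NAg values.

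The promoters of the pair of genes with the largest difference and an entry in RefSeq are shown for each direction, since transcription of the genes starts there. They run from 250 bases before to 50 bases after the start in GRCm38.p6, in the direction of the gene, and capitals mark matches on either strand to consensus letters of NFAT (GGAAA), AP-1 (TGANTCA), NF-kB (GGNNTTTCC or GGGANTTCC), EGR (GCGGGGGCG or GCGTGGGCG), NR4A (AAAGGTCA) and IRF (GAAANNGAA). Npas4 is at chr19:4989922-4990221 on the minus strand, and Rgs16 at chr1:153740103-153740402, Ramp3 at chr11:6658283-6658582 and Plaur at chr7:24462233-24462532 on the plus strand.
Npas4: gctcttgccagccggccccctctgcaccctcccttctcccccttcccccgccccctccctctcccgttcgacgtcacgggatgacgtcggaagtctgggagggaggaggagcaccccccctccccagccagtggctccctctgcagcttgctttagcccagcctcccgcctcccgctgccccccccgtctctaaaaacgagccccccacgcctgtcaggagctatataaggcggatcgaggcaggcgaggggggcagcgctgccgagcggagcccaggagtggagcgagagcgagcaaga
Rgs16: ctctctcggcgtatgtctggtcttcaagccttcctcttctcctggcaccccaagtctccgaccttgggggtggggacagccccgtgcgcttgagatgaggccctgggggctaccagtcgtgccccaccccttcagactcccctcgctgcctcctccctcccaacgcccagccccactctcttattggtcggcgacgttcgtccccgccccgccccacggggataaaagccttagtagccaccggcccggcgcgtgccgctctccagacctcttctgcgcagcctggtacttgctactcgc
Ramp3: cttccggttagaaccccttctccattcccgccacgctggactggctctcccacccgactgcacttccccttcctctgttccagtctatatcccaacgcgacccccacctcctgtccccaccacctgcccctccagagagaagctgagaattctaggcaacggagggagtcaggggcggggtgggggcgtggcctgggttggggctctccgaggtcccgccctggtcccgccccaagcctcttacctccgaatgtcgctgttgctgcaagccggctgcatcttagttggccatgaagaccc
Plaur: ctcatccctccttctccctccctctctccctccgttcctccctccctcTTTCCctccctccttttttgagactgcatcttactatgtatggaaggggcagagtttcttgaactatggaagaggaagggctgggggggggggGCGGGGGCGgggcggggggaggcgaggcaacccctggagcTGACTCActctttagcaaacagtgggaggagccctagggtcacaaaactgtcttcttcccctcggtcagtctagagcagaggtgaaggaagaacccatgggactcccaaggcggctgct
The Plaur promoter held 1 match each of the NFAT, AP-1 and EGR letters, and no match was found in the other 3 windows. Of all 32851 RefSeq promoters of this length, 61.3% hold the NFAT letters, 7.81% those of AP-1, 7.09% NF-kB, 3.47% EGR, 1.51% NR4A and 8.56% IRF. RefSeq promoters could be matched to 27 of the 45 genes that rose more, 299 of the 443 that fell less and 220 of the 303 that rose in naive cells with a lower response, under 80% in each case, so shares within these groups are void and are not given.

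The 443 genes with a smaller fall in tolerized cells include transcription factors, signaling enzymes and surface receptors of resting T cells. Zbtb7b (chr3:89181566-89198698) encodes ThPOK, the factor that sets CD4+ T cell identity. Normalized counts were 2657, 2695 and 2428 in N0, 218, 195 and 194 in NAg, 1538, 1641 and 1888 in T0 and 656, 618 and 629.7 in TAg, so NAg was lowest and TAg lay between NAg and T0 without overlap. The response was -3.68 in naive and -1.41 in tolerized cells, a difference of 2.27 ± 0.12 (adjusted p = 3.17e-09). Arl4c, a small GTPase, had 4842, 5647 and 6123 in N0, 737, 565 and 567 in NAg, 4187, 4416 and 3474 in T0 and 2291, 2125 and 1985 in TAg, with the same order of groups and a difference of 2.24 ± 0.17 (adjusted p = 1.25e-06).

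Dgka encodes diacylglycerol kinase α, which removes the lipid messenger that activates RAS and is known from anergic T cells. With counts of 17063, 18084 and 16339 in N0, 1300.4, 1122 and 1330.2 in NAg, 14073, 14319 and 17202 in T0 and 3594, 4279.8 and 3000.0 in TAg, it fell in both states and TAg lay above NAg without overlap. The difference was 1.71 ± 0.17 (adjusted p = 4.74e-06), while T0 and N0 differed by -0.18 on the log2 scale (adjusted p = 0.326). The list of 12 anergy ubiquitin ligases and diacylglycerol kinases went both ways. Dgka and Dgkz (0.42) were higher, and Cblb (-0.88), Sh2d2a (-0.57) and Peli1 (-0.53) were lower. Dgkz did not pass in 6 of 12 fits that left out a library. Among RGS genes, Rgs14 had 1548, 1481 and 1472 in N0, 44.1, 31.5 and 50.6 in NAg, 1062, 1124 and 1306 in T0 and 95.8, 163 and 119 in TAg, a difference of 1.93 ± 0.24 (adjusted p = 7.33e-05), and Rgs3 a difference of 1.48 ± 0.13 (adjusted p = 1.03e-06) from falls of both genes that were larger in naive cells.

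Among 6 other genes with the largest differences, 4 (Ggt5, Acvrl1, Ptgir and Pde11a) were lower in T0 than in N0. Ggt5, which acts on glutathione and leukotrienes, had 631, 829.7 and 652 in N0, 103, 102 and 114 in NAg, 341, 352 and 213 in T0 and 320.2, 242 and 246 in TAg. It fell in naive cells by 2.72 and did not pass the test in tolerized cells (-0.17, adjusted p = 0.447), with a difference of 2.56 ± 0.26. Acvrl1, a receptor of the TGF-β family, had 495, 653 and 468 in N0, 27.8, 15.7 and 28.5 in NAg, 167, 153 and 113 in T0 and 31.9, 31.9 and 32.7 in TAg, with a difference of 2.31 ± 0.31. Its gap lay at rest (-1.90), while TAg and NAg differed by 0.42 (adjusted p = 0.222). Ptgir, the prostacyclin receptor, had 78.3, 83.6 and 78.0 in N0, 4.64, 2.25 and 7.38 in NAg, 17.8, 17.1 and 16.6 in T0 and 2.13, 5.69 and 7.92 in TAg and a difference of 2.34 ± 0.59 (adjusted p = 0.00926), with overlapping NAg and TAg. Without TAg replicate 3 its difference was 1.92 and did not pass. Lbp, a lipopolysaccharide binding protein, had 88.8 ± 29.1 in N0, 3.58 ± 4.36 in NAg, 40.9 ± 4.03 in T0 and 17.3 ± 7.71 in TAg and a difference of 3.29 ± 0.73 (adjusted p = 0.00535). Pde11a, a phosphodiesterase of cyclic nucleotides, had 137 ± 1.73 in N0, 32.1 ± 10.8 in NAg, 69.9 ± 9.13 in T0 and 84.1 ± 7.23 in TAg and a difference of 2.36 ± 0.29. The vesicle GTPase Rab3d had 159 ± 16.9 in N0, 8.07 ± 2.38 in NAg, 155 ± 0.70 in T0 and 39.8 ± 10.5 in TAg and a difference of 2.32 ± 0.33 with T0 and N0 close to each other.

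Gene lists of known functions were described by the number of members at an adjusted p under 0.05 in each direction, beside 13.5% higher and 6.34% lower of all genes tested. The median difference of all genes was 0.05. Of 25 genes of proximal TCR signaling, 10 had a higher and 5 a lower response, with a median of 0.18. All 10 fell in naive cells, among them the receptor chain Cd3g, with 2077, 1979 and 2093 in N0, 688, 571 and 597 in NAg, 1805, 1943 and 2108 in T0 and 1142, 1322 and 1271 in TAg and a difference of 1.08 ± 0.12 (adjusted p = 7.88e-06), Cd3e (0.93), Cd4 (0.99) and Ptpn6. The 5 with a lower response were Ptpn22 (-2.31), Themis (-1.11), Ubash3b (-1.08), Ptprc (-0.46) and Zap70 (-0.37). Ptpn22, a phosphatase that inhibits TCR signaling, had 1686, 1559.9 and 1919 in N0, 10675, 11652 and 10904 in NAg, 2640.1, 2924 and 3719 in T0 and 4129, 4051 and 3895 in TAg. It rose much less in tolerized cells, from a higher level at rest, and NAg lay above TAg without overlap.

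Of 24 genes of the naive state and quiescence, 9 had a higher response and 4 a lower one, with a median of 0.56. S1pr1, the receptor that lets T cells leave lymphoid organs, had 6086, 6042 and 6006 in N0, 305, 390.3 and 363 in NAg, 5169.9, 5234 and 6143 in T0 and 690.5, 749.9 and 788 in TAg. It fell steeply in both states and less in tolerized cells, with a difference of 1.21 ± 0.13 (adjusted p = 5.85e-06). The homing receptor Ccr7 had a difference of 1.01 ± 0.16, and the transcription factors Tcf7 and Lef1 0.96 ± 0.12 and 0.74 ± 0.12, all from smaller falls. Foxo1, Satb1, Btg2 and Fam169b had lower responses, from -1.01 to -0.69, and Btg2 no longer passed in 8 of 12 fits that left out a library.

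Of 18 G1 cyclins, CDKs and inhibitors, 7 were higher and 2 lower, and all 7 fell in naive cells. Among the 7, Rbl2 did not pass in 10 of 12 fits that left out a library. The CDK inhibitors Cdkn2d (1.94 ± 0.36) and Cdkn1b (1.10 ± 0.15) fell less, whereas Cdkn1a, which encodes p21, rose less, with 10.5, 0.99 and 10.5 in N0, 543, 546 and 514 in NAg, 15.3, 17.1 and 9.25 in T0 and 144, 89.9 and 135 in TAg and a difference of -3.02 ± 0.52 (adjusted p = 0.00123). Of 23 regulators of PI3K, AKT and mTOR, 8 were higher, all from falls in naive cells, and 3 lower. Of the 3 lower genes, Rptor and Rheb each did not pass in 7 of 12 fits that left out a library. The list as written includes Pdk1, a kinase that inhibits pyruvate dehydrogenase and so is no regulator of this pathway. Pdk1 is counted among the 8 and had the largest difference, with 4332, 6235 and 5032 in N0, 498, 427 and 447 in NAg, 2593, 2564 and 2385 in T0 and 706, 576 and 623 in TAg and 1.52 ± 0.17 (adjusted p = 2.07e-05). The PI3K subunit Pik3cd had 1.26 ± 0.11.

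Of 22 genes of cholesterol and fatty acid synthesis, 8 were higher and 1 lower (Acly, -0.39), with a median of 0.29. Mvd had 131, 109 and 122 in N0, 31.3, 21.4 and 26.4 in NAg, 101, 92.3 and 86.0 in T0 and 61.7, 43.2 and 56.4 in TAg and a difference of 1.40 ± 0.27 (adjusted p = 0.0016), and Dhcr7 1.01 ± 0.19, both from smaller falls, while Fdps (0.93), Lss (0.47) and Srebf1 (0.56) rose in tolerized cells. Of 27 chaperones, 5 were higher and 0 lower, namely Dnaja1, Dnajb1, Pdia4, Pdia3 and Hsp90b1, of which Dnajb1 did not pass in 9 of 12 fits that left out a library. At an unadjusted p under 0.05 in edgeR, 0 chaperones were lower, and 0 by DESeq2. Of 15 genes of calcium, calcineurin and NFAT, 4 were higher (Nfatc2, Nfatc3, Ppp3r1 and Orai2, all falling in naive cells) and 3 lower (Nfatc1, Orai1 and Itpkb).

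Early induced transcription factors of the NR4A family had lower responses. Nr4a2 (chr2:56959241-56976414), an orphan nuclear receptor induced by TCR signaling, had counts of 33.4, 45.8 and 48.5 in N0, 10532, 10771 and 9989 in NAg, 121, 121 and 120.2 in T0 and 2081, 1871 and 1925 in TAg. Replicates were close in each group and no groups overlapped. It rose in both states, with responses of 7.93 and 4.02 and a difference of -3.91 ± 0.14 (adjusted p = 3.39e-11). Nr4a3 had 277, 215 and 311 in N0, 56789.9, 60709 and 58349 in NAg, 124, 179 and 155 in T0 and 12981, 9803 and 14953 in TAg, and Nr4a1 577, 992 and 1433 in N0, 56736, 59546 and 66995 in NAg, 475, 479 and 325 in T0 and 8377, 6358 and 8990.2 in TAg. The differences were -1.41 ± 0.24 for Nr4a3 (adjusted p = 0.00118) and -1.72 ± 0.42 for Nr4a1 (adjusted p = 0.0202). That of Nr4a1 was -1.64 without T0 replicate 1 and -1.63 without T0 replicate 2, with an adjusted p of 0.0534 in each case. Of the 9 EGR, NAB and NR4A genes tested, the 3 receptors were thus lower, and 2 (Egr1 and Nab2) higher.

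Fosl2 (chr5:32438845-32460204), an AP-1 subunit, had 150.0, 171 and 171 in N0, 25339, 29948 and 25508 in NAg, 322, 352 and 391 in T0 and 7621, 7571 and 8043 in TAg, with T0 above N0 and TAg well below NAg. The difference was -2.91 ± 0.13 (adjusted p = 7.15e-10). Batf, a factor that pairs with JUN proteins, had -0.62 ± 0.15 (adjusted p = 0.00661), and the other 10 of 12 AP-1 genes did not pass, among them Fos with -0.86 ± 0.46 (adjusted p = 0.247) and Junb with 0.25 ± 0.44 (adjusted p = 0.764).

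Of 23 genes of the NF-kB pathway, 10 were lower and 5 higher, with a median of -0.44. Nfkb1, which encodes the p105 precursor of p50, had counts of 3488, 2631 and 3128 in N0, 49329.5, 53927 and 54486 in NAg, 3047, 3213 and 3297 in T0 and 18820.3, 15584 and 18582 in TAg. N0 and T0 overlapped, and NAg lay above TAg without overlap. Its difference was -1.62 ± 0.14 (adjusted p = 1.20e-06). The subunit Rel had 698, 618 and 680.1 in N0, 12113, 12321 and 12386 in NAg, 655, 616 and 513 in T0 and 4753, 4605 and 5387 in TAg and -1.16 ± 0.13 (adjusted p = 7.83e-06), and the nuclear inhibitor Nfkbid 839.8, 1073 and 1173 in N0, 21268, 21289 and 23573 in NAg, 660.2, 634 and 592 in T0 and 4083, 3844 and 4639.6 in TAg and -1.69 ± 0.15 (adjusted p = 1.38e-06). The inhibitor Nfkbia, a direct target of NF-kB, had -0.95 ± 0.17 (adjusted p = 0.000966). Of the 5 higher genes, 4 fell in naive cells. The fifth, Nfkbiz, rose more (0.60), but did not pass in 8 of 12 fits that left out a library.

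Some ligands of the TNF family had lower responses. Cd40lg (chrX:54465320-54477219) encodes the ligand through which helper T cells activate B cells and dendritic cells. Counts of 739, 1123 and 922 in N0, 7756, 8458 and 6440.1 in NAg, 390.4, 403 and 380.0 in T0 and 329, 234 and 238 in TAg show a rise in naive cells alone, with TAg below T0 and no overlap between any groups. The response was 3.02 in naive cells and -0.55 in tolerized cells, a difference of -3.58 ± 0.24 (adjusted p = 2.67e-06). Tnfsf11, which encodes RANKL, had 159.6, 61.7 and 119.9 in N0, 3514, 3699 and 2914 in NAg, 85.7, 103 and 82.3 in T0 and 673, 447 and 688 in TAg and -2.15 ± 0.41 (adjusted p = 0.00582). The death ligand Fasl had -1.52 ± 0.20 (adjusted p = 4.63e-05) and Tnfsf14, or LIGHT, -1.22 ± 0.36 (adjusted p = 0.0396). The Tnfsf14 call was lost in 8 of 12 fits that left out a library (N0 replicates 2 and 3, any of T0 or NAg) and in 4 of 9 others, and differences without a library ran from -1.57 to -0.98. Of the 12 ligands tested, these 4 were lower and Ltb (0.99) and Tnfsf10 (0.89), which fell in naive cells, higher.

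Among 20 helper cytokines, 3 were lower and 1 higher, although the median difference was -1.31. Tnf had 199, 131 and 211 in N0, 2855, 2554 and 3254 in NAg, 163, 155 and 114 in T0 and 1439, 1112 and 1339 in TAg and a difference of -0.83 ± 0.26 (adjusted p = 0.0413), and Tgfb1 had -0.65 ± 0.12 (adjusted p = 0.000991). The Tnf call was lost in 7 of 12 fits that left out a library (N0 replicate 1, T0 replicates 1 and 2, NAg replicates 1 and 3, TAg replicates 2 and 3) and in 5 of 9 others, and differences without a library ran from -0.97 to -0.65. Il2 had 10.5, 6.96 and 6.66 in N0, 4863, 5044 and 2935 in NAg, 1.70, 6.84 and 4.62 in T0 and 816, 494 and 761 in TAg, so TAg was below NAg (-2.63 on the log2 scale, adjusted p = 3.42e-05), but with few counts at rest the difference in response was -1.77 ± 1.14 and did not pass (adjusted p = 0.341). The difference for Il10, the suppressive cytokine of tolerized cells, did not pass (-0.04, adjusted p = 0.956), with 2.87, 0 and 1.90 in N0, 116, 78.7 and 43.2 in NAg, 78.1, 86.4 and 59.2 in T0 and 3359, 2953 and 3594 in TAg. Its level was higher in TAg than in NAg, by 5.39 on the log2 scale (adjusted p = 2.10e-07), and all T0 values lay above those of N0, where no library had more than 3 reads. With so few reads in N0 the size of the Il10 difference is uncertain, and equal responses are not shown. In fits that left out a library it ran from -0.7 to 0.49. Il21 and Ifng did not pass either, with 0.64 ± 1.11 and -1.35 ± 0.74.

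The genes with the largest negative difference and more than 3 reads in every group were led by Ramp3 (chr11:6558524-6577478), an accessory protein of calcitonin-type receptors. Counts were 49.7, 59.7 and 59.0 in N0, 429, 371 and 232 in NAg, 59.4, 58.1 and 43.5 in T0 and 6.38, 7.97 and 10.9 in TAg, so it rose in naive and fell in tolerized cells, with a difference of -5.26 ± 0.37 (adjusted p = 8.23e-08). Plaur (chr7:25247519-25260892), the urokinase receptor, had 46.8, 125 and 62.8 in N0, 2208, 2676 and 1844 in NAg, 94.2, 41.9 and 46.2 in T0 and 53.2, 50.1 and 63.4 in TAg. Only NAg stood apart, and the difference was -4.97 ± 0.58 (adjusted p = 0.000389). Arhgef10, an exchange factor of small GTPases, had 124, 103 and 128 in N0, 1229, 1708 and 1555 in NAg, 126, 145 and 162 in T0 and 129.8, 113 and 139.6 in TAg with the same pattern and -3.83 ± 0.20 (adjusted p = 2.73e-09). Epha2, a receptor of ephrins, had 6.18 ± 3.57 in N0, 55.1 ± 5.44 in NAg, 9.27 ± 3.74 in T0 and 4.21 ± 2.06 in TAg, and Kif15, a spindle motor, 42.2 ± 25.3 in N0, 595 ± 82.4 in NAg, 108 ± 13.1 in T0 and 109 ± 29.5 in TAg, with differences of -4.25 ± 0.64 and -3.79 ± 0.49. Epb4.1l4b (-4.75 ± 0.86), Agpat9 (-4.62 ± 0.62), Aph1c (-3.75 ± 0.55) and Bend4 (-3.41 ± 0.31) completed these genes with Cd24a, at 133, 42.8 and 53.3 in N0, 1748, 2278 and 2569.7 in NAg, 420.1, 115 and 151 in T0 and 546, 402 and 859 in TAg, with -3.45 ± 0.82 (adjusted p = 0.0198). The Cd24a call was lost without N0 replicate 2 (-3.16) or N0 replicate 3 (-3.24).

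Transcription factors of helper and regulatory T cells were lower for 12 and higher for 4 of 28, with a median of -0.61. The nuclear receptor Rora had 504, 562 and 585 in N0, 3224, 4848 and 4021 in NAg, 1015, 1099 and 906 in T0 and 1455, 1997 and 2112 in TAg and a difference of -1.99 ± 0.24 (adjusted p = 0.000191). The interferon regulatory factor Irf8 had 552, 221 and 267 in N0, 31235, 32524 and 33990.4 in NAg, 850.3, 776 and 655 in T0 and 23879, 19172 and 26678 in TAg and -1.62 ± 0.40 (adjusted p = 0.0215), a call lost without T0 replicate 1 (-1.53), T0 replicate 2 (-1.60) or TAg replicate 2 (-1.50). Irf4 had -1.24 ± 0.17, Tbx21, which encodes T-bet, -1.32 ± 0.32, and Bcl6, the factor of follicular helper T cells, -1.40 ± 0.22.

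Genes of cytokine signaling followed. Of 15 SOCS, CISH and STAT genes, 6 were lower, namely Cish (-1.19 ± 0.23), Socs1 (-1.11 ± 0.18), Stat4, Stat5a, Stat3 and Stat5b. Of 26 cytokine receptors, 6 were lower and 4 higher. Il2rb, the β chain of the IL-2 receptor, had 1659.6, 635 and 1059 in N0, 7665, 6072 and 5182 in NAg, 2969, 3651 and 3886 in T0 and 6242, 5533 and 6557 in TAg. TAg and NAg overlapped, T0 lay above N0, and the difference was -1.69 ± 0.43 (adjusted p = 0.0245). The Il2rb call was lost when any of 6 libraries was left out (N0 replicate 3, T0 replicates 2 and 3, NAg replicate 1, TAg replicates 1 and 2), with -1.53 to -1.71. Survival genes had 5 lower and 2 higher of 19, with the apoptosis promoter Bcl2l11 at 1133, 1738 and 1322 in N0, 8992, 9344 and 8112 in NAg, 1237, 1299 and 1135 in T0 and 2022, 1947 and 2029.7 in TAg and -1.95 ± 0.17 (adjusted p = 3.45e-06), Gadd45b at -1.87 ± 0.25 and Bcl2l1 at -1.05 ± 0.19. The serpins Serpinb6b and Serpinb9, inhibitors of proteases such as granzyme B, were the 2 lower genes of 9 cytotoxic genes. Serpinb6b had 137, 104 and 84.7 in N0, 985, 1113 and 1029 in NAg, 156, 159 and 225 in T0 and 231, 182 and 254 in TAg and -2.95 ± 0.25 (adjusted p = 2.69e-06).

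Feedback inhibitors and inhibitory receptors were among the genes with a lower response, and several of these were higher in T0 than in N0. Of 18 MAPK phosphatases, Sprouty and SPRED genes, 8 were lower and 3 higher. Spry1, an inhibitor of RAS signaling, had 44.9, 11.9 and 31.4 in N0, 6383, 6277 and 6676 in NAg, 201, 244 and 535 in T0 and 7031, 6424 and 7702 in TAg. NAg and TAg overlapped, T0 was above N0, and the difference was -3.32 ± 0.60 (adjusted p = 0.00502). Dusp10, a phosphatase of JNK and p38, had 940.1, 2566 and 2007 in N0, 189, 169 and 142 in NAg, 659, 616 and 749 in T0 and 264, 303 and 185 in TAg and a higher response of 2.03 ± 0.51 (adjusted p = 0.0241) from a smaller fall, a call lost when any of 6 libraries was left out (T0 replicates 1 and 2, NAg replicates 2 and 3, TAg replicates 1 and 2), with 1.87 to 2.04. Ctla4, the inhibitory receptor that competes with CD28, had 575, 345 and 469 in N0, 4683, 4732 and 3582 in NAg, 1779, 1886 and 2654 in T0 and 8598, 7432 and 9082 in TAg. It was higher in tolerized than naive cells at rest (2.18) and after Ag (0.95), and its lower response of -1.23 ± 0.29 (adjusted p = 0.0153) is a smaller fold rise from a higher base. On the linear scale the sign was opposite, with a rise of Ctla4 that was larger in tolerized cells by 2395 ± 679 normalized counts (SE). Pdcd1, which encodes PD-1, had 141, 51.7 and 102 in N0, 1429, 1447 and 1469 in NAg, 250.3, 278 and 297 in T0 and 1571, 1774 and 1604 in TAg, with levels after Ag that differed by 0.19 (adjusted p = 0.474) and a difference in response of -1.29 ± 0.30 (adjusted p = 0.0138). Lag3 (1.36 ± 0.59, adjusted p = 0.154), Tigit (0.97 ± 0.63, adjusted p = 0.341) and Havcr2 (0.11 ± 0.79, adjusted p = 0.946) did not pass, nor did the factor Maf (1.40 ± 0.48, adjusted p = 0.0773). Of the 18 genes that the study names beside its expression values, 6 were lower and 2 (Dusp6 and Nfil3) higher, and these genes were chosen on the same libraries, so the counts are no independent evidence.

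Adhesion, migration and cAMP genes were divided. Of 20 receptors of trafficking, 3 were lower, Cd69 with 570.4, 829.7 and 675 in N0, 20349, 19411 and 24382 in NAg, 701, 660.1 and 899.6 in T0 and 6827, 5842 and 7871 in TAg and -1.77 ± 0.23 (adjusted p = 0.000227), Gpr183 (-1.27 ± 0.16) and the integrin chain Itgb1, and S1pr4 and Itgb7 were higher, S1pr4 not in 8 of 12 fits that left out a library. Itgb1 rose in naive and fell in tolerized cells, with 2383, 1269 and 1828 in N0, 3104, 3066 and 2887 in NAg, 4197, 4093 and 7397 in T0 and 2720.4, 3129 and 3309.9 in TAg and -1.50 ± 0.39 (adjusted p = 0.0259), but its NAg and TAg values overlapped and T0 replicate 3 stood above the other T0 libraries. The Itgb1 call was lost when any of 5 libraries was left out (N0 replicate 3, NAg and TAg replicates 1 and 2), with -1.42 to -1.52. Of 18 genes of cAMP, adenosine and G proteins, 6 were lower and 4 higher. Crem, a cAMP-responsive factor, had 251, 426 and 359 in N0, 2477, 3221 and 3070.4 in NAg, 277, 218 and 296 in T0 and 554, 635 and 583 in TAg and -1.92 ± 0.25 (adjusted p = 0.00031).

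A rise in naive and a fall in tolerized cells was found for 31 genes, and Ramp3, Cd40lg, Mpp7 and Cdc42bpg had the largest differences. Mpp7, a scaffold of cell junctions, had 207, 346 and 319 in N0, 1771, 1224 and 1591 in NAg, 271, 227 and 259 in T0 and 168, 117 and 159 in TAg and -3.16 ± 0.29 (adjusted p = 2.59e-05), and Cdc42bpg, a kinase bound by CDC42, 156, 135 and 142 in N0, 531, 467 and 221 in NAg, 224, 174 and 155 in T0 and 56.4, 60.3 and 79.2 in TAg and -2.99 ± 0.41 (adjusted p = 0.000477). Among genes that fell more in tolerized cells, the TCR signaling adaptor Themis had 4855, 5747 and 4958 in N0, 2993, 3781 and 2257 in NAg, 3538, 3059 and 3204 in T0 and 906, 744 and 978 in TAg and -1.11 ± 0.24 (adjusted p = 0.00757). TAg was its lowest group without overlap.

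**Figure D5:**
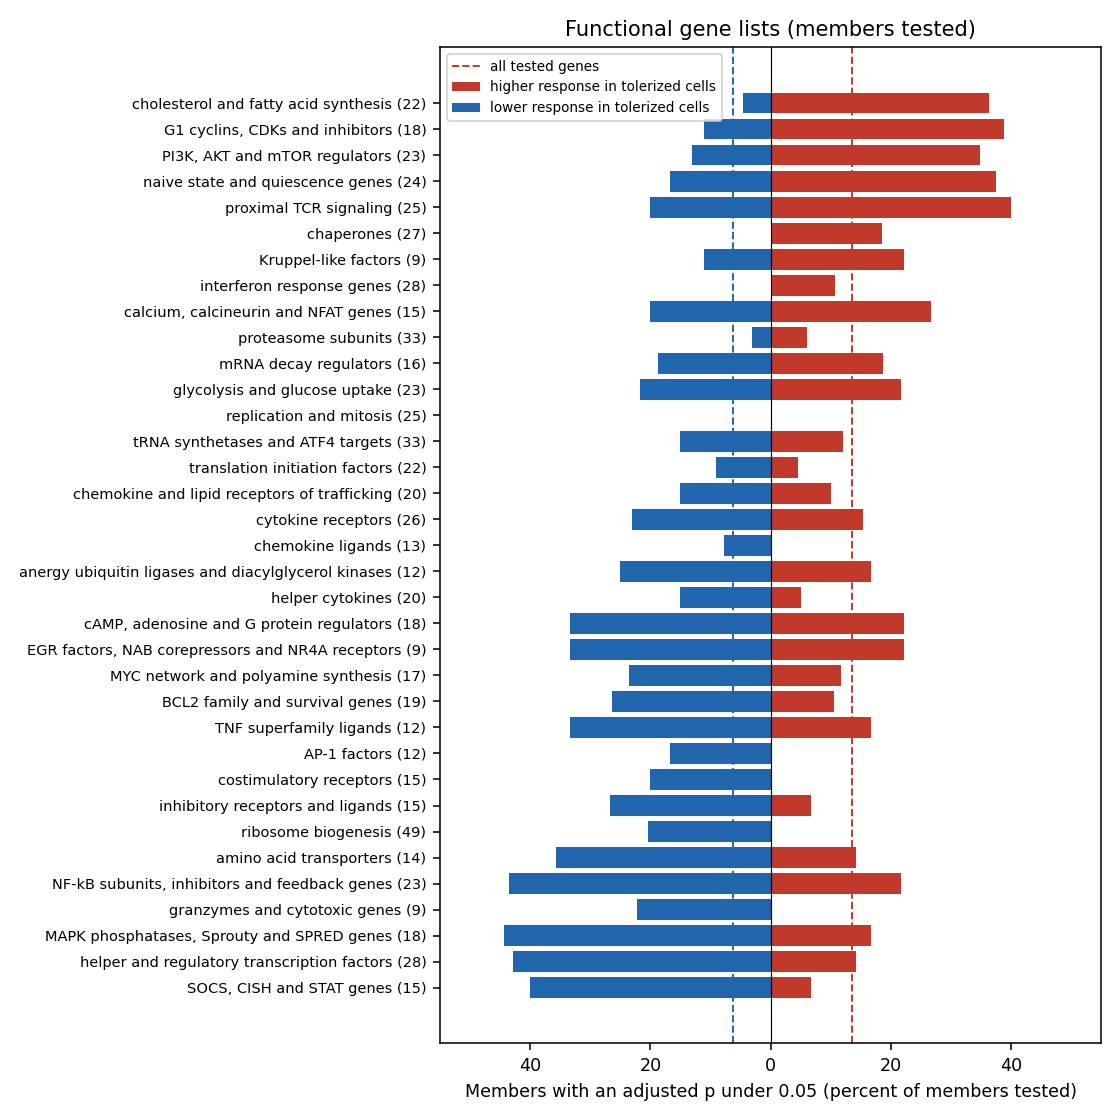
Share of each functional list with a higher (red, right) or lower (blue, left) response of tolerized cells at an adjusted p under 0.05, in percent of the members tested (number in brackets). Dashed lines give the shares of all genes tested, 13.5% and 6.34%.

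Ribosome biogenesis genes, which Ag induces, differed little between both states. All 49 ribosome biogenesis genes rose in both, with medians of 2.99 and 2.86. Of these, 10 had a lower and 0 a higher response, by -0.72 for the nucleolar protein Ncl and less for the others, and none reached the limit of 1. Replication and mitosis genes had 0 higher and 0 lower of 25, with 0 higher and 1 lower at an unadjusted p under 0.05 in edgeR and 0 and 0 by DESeq2. The remaining lists are given as counts, to be read beside 13.5% higher and 6.34% lower of all genes tested. In most of them the share of lower members was above that of all genes, though from few genes each. These were 1 higher and 2 lower of 22 translation initiation factors, 2 and 5 of 14 amino acid transporters, 4 and 5 of 33 tRNA synthetases and ATF4 targets, 5 and 5 of 23 glycolysis genes, 2 and 4 of 17 MYC and polyamine genes, 2 and 1 of 33 proteasome subunits, 3 and 3 of 16 regulators of mRNA decay, 3 and 0 of 28 interferon response genes, 2 and 1 of 9 Kruppel-like factors, 2 and 3 of 12 anergy ubiquitin ligases and diacylglycerol kinases, 0 and 1 of 13 chemokine ligands, 0 and 3 of 15 costimulatory receptors and 1 and 4 of 15 inhibitory receptors and ligands. Among costimulatory receptors the lower genes were Slamf1 (-1.73), Tnfrsf1b (-0.89) and Cd226 (-0.70), and the chemokine was Ccl22. Of the lower inhibitory receptors and ligands, Cd274 did not pass in 7 and Btla in 10 of 12 fits that left out a library. Other members counted here failed in most of these 12 fits. They include Eif1a (7) and Eif3c (9), the 2 lower initiation factors, and Cnot6l (8), Klf6 (7) and Gbp2 (7), which were higher. Where edgeR gave a count of 0, the counts at an unadjusted p under 0.05 and by DESeq2 were 1 and 0 for higher ribosome biogenesis genes, 1 and 1 for AP-1, 3 and 2 for costimulatory receptors, 0 and 0 for chemokines and for cytotoxic genes, and 2 and 2 for lower interferon response genes.

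Some called genes had a group with no more than 3 reads in any library, 5 of the 488 and 11 of the 354, and the size of their difference is uncertain, so only counts and adjusted p are given. Il22, a cytokine that acts on epithelia, had 0, 0 and 0 in N0, 73.1, 88.9 and 40.1 in NAg, 1.70, 3.42 and 2.77 in T0 and 17.0, 19.3 and 32.7 in TAg (adjusted p = 0.00466). Ccl22, a ligand of CCR4, had 1.91, 0 and 0 in N0, 232, 197 and 198 in NAg, 1.70, 2.57 and 0 in T0 and 12.8, 12.5 and 12.9 in TAg (adjusted p = 0.00378), and Lipg, an endothelial lipase, 0.96, 0 and 0 in N0, 1309, 1936 and 2237 in NAg, 0, 0.86 and 2.77 in T0 and 33.0, 42.1 and 60.4 in TAg (adjusted p = 0.0493). Levels in NAg were above those in TAg without overlap in all 3. Mt2, a metallothionein, had 0, 0.99 and 0 in N0, 85.8, 75.4 and 23.2 in NAg, 10.2, 4.28 and 8.32 in T0 and 57.5, 36.4 and 59.4 in TAg (adjusted p = 0.0147), with a gap at rest, and Gcnt4 0, 1.99 and 0 in N0, 53.4, 64.1 and 60.1 in NAg, 17.8, 13.7 and 0 in T0 and 36.2, 4.55 and 20.8 in TAg (adjusted p = 0.0391). In the other direction, Alpl, the tissue-nonspecific alkaline phosphatase, had 6.69, 1.99 and 0.95 in N0, 36.0, 27.0 and 26.4 in NAg, 2.55, 1.71 and 2.77 in T0 and 114, 102 and 125 in TAg (adjusted p = 0.0222) and Crabp2, which binds retinoic acid, 2.87, 5.97 and 5.71 in N0, 73.1, 96.7 and 49.5 in NAg, 1.70, 0 and 0.92 in T0 and 75.5, 74.0 and 62.4 in TAg (adjusted p = 0.0456). Gprc5b (113, 101 and 90.4 in N0, 0, 0 and 0 in NAg, 56.9, 47.9 and 104 in T0 and 2.13, 2.28 and 1.98 in TAg, adjusted p = 0.025), Tbx6 (211, 229.8 and 191 in N0, 1.16, 1.12 and 0 in NAg, 178, 188 and 239 in T0 and 6.38, 15.9 and 4.95 in TAg, adjusted p = 0.00305) and Brdt (80.3, 119 and 105 in N0, 1.16, 1.12 and 2.11 in NAg, 34.8, 47.9 and 30.5 in T0 and 3.19, 4.55 and 8.91 in TAg, adjusted p = 0.0022) fell to few reads in both states. Calls of Lipg, Gcnt4, Crabp2, Gprc5b, Alpl, Mt2 and Ccl22 were lost in 1 or more fits without a library.

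The markers of the enriched cells were present in all libraries, with summed normalized counts of 10 T cell genes of 27900 to 54500. Of these, 4 had a higher and 1 a lower response. Neutrophil genes summed to 191 to 366 in N0, 262 to 551 in NAg, 2660 to 3920 in T0 and 2830 to 5380 in TAg, so they moved with tolerization and little with Ag, and 1 of 14 (Chi3l3, lower) passed the test. Macrophage genes summed to 652 to 905 in N0, 704 to 2330 in NAg, 1750 to 2090 in T0 and 1310 to 1920 in TAg, and 0 of 12 passed (1 lower at an unadjusted p under 0.05, 0 by DESeq2). Erythroid genes without Tfrc, the transferrin receptor that activated T cells also induce, summed to 90.5 to 289 in N0, 219 to 542 in NAg, 320 to 2560 in T0 and 197 to 1740 in TAg. Tfrc had a lower response (-1.16 ± 0.20, adjusted p = 0.00131). The lists of dendritic cells, B cells, CD8 T and NK cells and platelets had 0 members past the test in edgeR, with 0, 1, 0 and 0 at an unadjusted p under 0.05 and 0, 1, 1 and 0 by DESeq2, and 1 of 4 stromal genes (Cdh5, -3.01, adjusted p = 0.0145) was lower. Whether RNA of other cells contributes to the results was not tested beyond the next fit. With a score of 37 neutrophil, macrophage and erythroid genes (Tfrc included) as a covariate, 489 genes were higher and 339 lower. The score was below 0 in all N0 and NAg libraries and above 0 in all T0 and TAg libraries, so it largely followed cell state. Y-linked reads showed that T0 replicates 1 and 2 and TAg replicate 3 came from males and the other 9 libraries from females. A fit without these 3 libraries kept only 1 library in T0 and 2 in TAg, so calls lost in it cannot be told apart from the loss of replicates. Named genes that lost their call there include Rgs16, Angptl2, Lbp, Ptgir, Dusp10, Tnf, Tnfsf11, Nr4a1, Pdcd1, Il2rb, Irf8, Themis and Cd24a. The difference of Gcnt4 changed sign. With sex as a covariate, 456 genes were higher and 325 lower. Genes that overlap another gene made up 188 of the 488 and 159 of the 354, among them Angptl2, Egr1, Nab2, Bach2, Zbtb7b, Dgka, Ramp3, Ptpn22, Crem and Ctla4, and their counts are uncertain because the handling of overlap and strand is not given in the sources used here.

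The study also treated naive and tolerized cells in culture with PMA and a calcium ionophore (PI), which act below the TCR. In a fit of all 18 libraries, the difference in response to PI is given beside that to Ag, and both share N0 and T0. For Cd40lg it was 1.32 ± 0.20 with PI and -3.57 ± 0.22 with Ag, for Fosl2 0.85 ± 0.14 and -2.91 ± 0.14, for Nr4a2 -0.66 ± 0.14 and -3.91 ± 0.14, for Nfkb1 0.98 ± 0.13 and -1.62 ± 0.13 and for Ramp3 0.43 ± 0.29 and -5.25 ± 0.41. Tested without the resting libraries, the gap of TAg to NAg minus that of TPI to NPI was -4.89 ± 0.21 for Cd40lg (adjusted p = 3.12e-11), -3.75 ± 0.13 for Fosl2 (adjusted p = 5.09e-16) and -3.25 ± 0.11 for Nr4a2 (adjusted p = 5.09e-16). Among genes with a higher response, the values were -0.12 ± 0.24 with PI and 2.64 ± 0.27 with Ag for Dusp6, -0.05 ± 0.13 and 2.28 ± 0.14 for Zbtb7b, and 1.51 ± 0.14 and 1.23 ± 0.14 for Nab2. The difference between both was 2.76 ± 0.25 for Dusp6 (adjusted p = 4.43e-07) and -0.29 ± 0.13 for Nab2 (adjusted p = 0.0935). The genes tested in this way were named for their difference in response to Ag, which uses the same TAg and NAg libraries. Their p-values are therefore no independent evidence. All PI libraries came from males and from culture, so sex and culture cannot be told apart from the stimulus.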

How the data were processed

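The authors aligned paired-end reads of ribosome-depleted RNA to mm9 (NCBIM37) with TopHat2 2.1.1, counted them per Ensembl gene with HTSeq 0.9.1 and deposited raw counts per library without pooling, with versions from the submitters' processing notes. The deposited counts of 12 libraries were analyzed with edgeR 4.0.16 in R 4.3.3 and DESeq2 1.42.0. Symbols and positions came from an annotation of NCBIM37 for 37205 of 37991 genes. A gene was tested when normalized counts in any group averaged 3 or more, which held for 16615 of the 23237 genes with a read. Libraries were scaled by TMM, a model with 4 group means was fitted, and contrasts were tested with edgeR's quasi-likelihood F test and Benjamini-Hochberg adjustment over all tested genes. Standard errors were taken from the log2 value and its F. Depth of 10758571 to 13559974 counts limits the precision of genes with few counts. On simulated counts for 16446 genes, 195 of 200 genes with a log2 difference of 2 were recovered, with 2 false calls. This shows that the fit recovers simulated differences of that size. Called genes had a smaller median difference, 1.25 for a higher and -1.45 for a lower response, and recovery at such sizes was not tested. The rate of false calls in the real libraries cannot be read from simulated counts.

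Alternatives were DESeq2, its size factors, library totals, no filter, all 18 libraries, a replicate block, covariates for marker genes of neutrophils, erythroid cells and macrophages and for sex, a test against a fold of 2 (glmTreat of edgeR), no minimum average, and each library left out. The fit without male libraries was chosen after seeing the data. The labels number replicates 1 to 3 in each group and do not say that equal numbers belong together, or that replicates are separate mice, while the methods call them biological replicates.

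Named genes were the 12 called genes with the largest difference in each direction and more than 3 reads in a library of every group (no unnamed gene models, receptor segments, sex-linked or marker genes), up to 4 passing members in each direction and the most abundant other member of each of the functional lists, the genes the study names, called genes with a group near 0, and genes with opposite responses. Some of these genes are not reported here. Genes used beyond this rule were named after their values were seen. The groups, lists and rules were chosen with earlier results of these data known.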

Additional observations from a re-analysis of the deposited data

Results flagged for a closer look

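The response to Ag differed between naive and tolerized cells for 488 genes in the direction of a higher and 354 genes in the direction of a lower response of tolerized cells, by the test of the difference itself. Y-linked reads, which lie outside the measurement of the response and served only to tell the sex of the libraries, were present in 3 of the 6 libraries of T0 and TAg (T0 replicates 1 and 2 and TAg replicate 3), with 5111 to 6563 reads, and at no more than 18 reads in the other libraries of the 4 groups.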

How the results depend on the processing

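The counts of 488 higher and 354 lower genes kept within 1.5 times their value under all alternatives but a test against a 2-fold difference (glmTreat), which called 40 higher and 76 lower genes, all among the main calls. They were 459 and 410 with DESeq2, 635 and 292 with library totals only, 525 and 384 with all 18 libraries and 527 and 446 without a minimum average. With single libraries left out they ranged from 416 to 605 and from 312 to 390. With a replicate block they were 484 and 362, and 6 of 18 pairs of libraries with equal numbers had deviations that correlated above 0.1 (-0.515 to 0.238, other pairs -0.442 to 0.468), so the numbers are not taken as pairs. Under the block Nfil3, Gcnt4, Dnajb1, Nfkbiz, Id3, Rbl2, Rgs2, Ier3, Cd274, Btla and Eif3c no longer passed, and the call of no other named gene was lost. For 260 named genes, 154 of 2340 fits under other alternatives lost the call, 21 gained it and 1 reversed. This was Gcnt4, at 1.07 without the male libraries, a gene with few reads. Of 3120 fits with a library left out, 285 lost a call, 17 gained it and 0 reversed. The fit without the male libraries kept only 1 library in T0 and 2 in TAg. Its lost calls are among the 154 and cannot be told apart from the loss of replicates. The cause of the other losses was not tested. The median difference of all genes was 0.05 with TMM, 0.02 with size factors and 0.13 with library totals. Several cytokine genes had few counts at rest.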
